A study of Drosophila melanogaster with 2 samples.

Results

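The genes described here encode the transcription factors through which the steroid hormone ecdysone acts in Drosophila. They were chosen by symbol as EcR, usp, br, Eip74EF, Eip75B, Hr3, Hr4, Hr39, ftz-f1 and Eip93F, which are 10 of the 13945 protein-coding genes annotated on the 6 chromosome arms (Ensembl release 115). The measurement was chromatin immunoprecipitation with sequencing (ChIP-seq) of fd96Cb, a forkhead family transcription factor. Chromatin came from whole Drosophila melanogaster embryos collected over 0 to 24 h, from a transgenic line that stably carries fd96Cb fused at its C-terminus to green fluorescent protein (GFP). The precipitation used an antibody against GFP according to the labels, whose antibody field names fd96Cb. Both samples, biological replicates 2 and 3, belong to this single group, so no conditions were compared; the promoter that drives the fusion is not given in the sources used here. For each gene, peak summits were counted in the gene body and 5000 bp on each side, and this stretch is called its locus below. In whole embryos, strong binding in a small share of cells and weak binding in many cells cannot be told apart.

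Ecdysone enters cells and binds a heterodimer of the nuclear receptors EcR and Ultraspiracle, the product of usp. The liganded receptor switches on early genes, among them br, Eip74EF and Eip75B, whose products act on later genes of the cascade such as Hr3, Hr4 and ftz-f1. In the embryo a pulse of ecdysone accompanies germ band retraction and dorsal closure, and larger pulses later drive moulting and metamorphosis. Many genes of the cascade are long and have several promoters, from which protein isoforms with different N-termini arise.

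The sequences at the strongest summits show what kind of DNA lay under the peaks. Each line gives 101 bases centred on the strongest summit of the optimal peak set at 8 of the 10 genes, 5′ to 3′ on the strand of that gene, in dm6 coordinates counted from 1. Capitals mark matches, on either strand, to TAAACA (core of the forkhead motif; reverse complement TGTTTA) and to TAATTA (the homeodomain motif, the same on both strands), which may overlap; the nuclear receptor hexamer AGGTCA (reverse complement TGACCT) was searched too and had no match.
usp, chrX:2041399-2041499, minus strand: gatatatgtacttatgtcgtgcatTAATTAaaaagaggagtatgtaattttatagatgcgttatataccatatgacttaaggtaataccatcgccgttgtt
br, chrX:1618817-1618917, plus strand: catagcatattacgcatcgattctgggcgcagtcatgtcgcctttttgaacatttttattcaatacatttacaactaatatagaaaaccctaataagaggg
Eip74EF, chr3L:17566981-17567081, minus strand: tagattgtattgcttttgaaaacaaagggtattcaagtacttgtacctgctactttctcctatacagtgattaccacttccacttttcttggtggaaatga
Eip75B, chr3L:17999782-17999882, minus strand: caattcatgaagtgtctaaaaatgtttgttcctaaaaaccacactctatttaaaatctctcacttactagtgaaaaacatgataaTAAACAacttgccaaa
Hr4, chrX:1947709-1947809, plus strand: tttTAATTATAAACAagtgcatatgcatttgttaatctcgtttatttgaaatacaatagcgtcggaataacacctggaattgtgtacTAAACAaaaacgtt
Hr39, chr2L:21263967-21264067, plus strand: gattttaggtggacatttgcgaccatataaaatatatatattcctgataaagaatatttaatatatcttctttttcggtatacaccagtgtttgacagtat
ftz-f1, chr3L:18756625-18756725, minus strand: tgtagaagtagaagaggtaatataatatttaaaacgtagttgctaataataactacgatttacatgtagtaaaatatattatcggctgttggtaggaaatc
Eip93F, chr3R:21993058-21993158, plus strand: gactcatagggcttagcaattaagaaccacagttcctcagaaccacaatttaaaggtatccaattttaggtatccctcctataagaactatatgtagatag
Matches were present at Hr4, Eip75B and usp and absent from the other 5 windows. The sequences at EcR and Hr3 are not printed here, and their strongest summits had no match either, so 3 of the 10 genes had one. The Hr4 window held 3 matches, 2 of them to the forkhead core. The longest run of A and T alone was 18 bp at Hr39, 17 bp at ftz-f1 and 13 bp at Hr4, and 4 bp at Eip74EF. The peaks of usp and Hr39 had their summit at the midpoint of an interval of 390 bp. Whether such windows are centred less closely than the others was not tested.

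Each replicate's list and the list from pooling them holds 30000 peaks, and an optimal set of 5743 was chosen by the irreproducible discovery rate (IDR), a measure of how alike peaks rank in both replicates. Peaks of the optimal set are called IDR peaks here, and the other 24257 pooled peaks weaker peaks. Each peak carries the authors' signal value, used only to rank peaks within a list, with rank 1 for the strongest. IDR peaks ran from 128.73 to 5351 with a median of 245.8. Depth is unknown, since the peak lists give no read totals.

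The number of fd96Cb peaks differed widely between the 10 loci. The 10 loci held 54 IDR summits, or 0.94% of all, on 0.513% of the arms. This is 7.86 summits per 100 kb, against 4.29 over the 6 arms. Of the 54, 42 lay at Hr4 (16), Eip75B (10), Hr3 (8) and ftz-f1 (8), and the other 6 genes had from 1 to 4. With the flanks of 5000 bp all 10 loci had an IDR summit, that of Hr39 lying inside a neighbouring gene, while 49.9% of all protein-coding loci did. Length bears on this count: the share was 62.4% among genes at least as long as usp, the shortest of the 10, and 75.0% among the 208 genes at least as long as their median of 63.0 kb. With as many of the strongest peaks of a single replicate, the loci held 52 summits in replicate 2 and 58 in replicate 3. Hr39 then had none in replicate 2 and Eip93F none in replicate 3.

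Windows of the same length as each locus, laid end to end along the arms, gave the genome's own range of counts. Among 1758 windows of the length of the Hr4 locus (76.0 kb), the median was 3 summits, and 9 windows (0.512%) held 16 or more. Windows of the length of the Hr3 locus (43.4 kb) had a median of 1, and 2.5% held 8 or more. For ftz-f1 (60.7 kb) the median was 2 and 6.13% of windows reached 8. For Eip75B (124 kb) the median was 5 and 17.8% reached 10. Counts at the other loci were common ones: 34.6% of windows held as many as usp, 46.8% as many as EcR, 48.5% as many as Eip74EF, 55.2% as many as Hr39, 68.3% as many as br and 73.9% as many as Eip93F. Among all 13945 protein-coding loci, 5 held 16 or more IDR summits, Hr4 being 1 of them, and 36 held 10 or more.

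**Figure D1:**
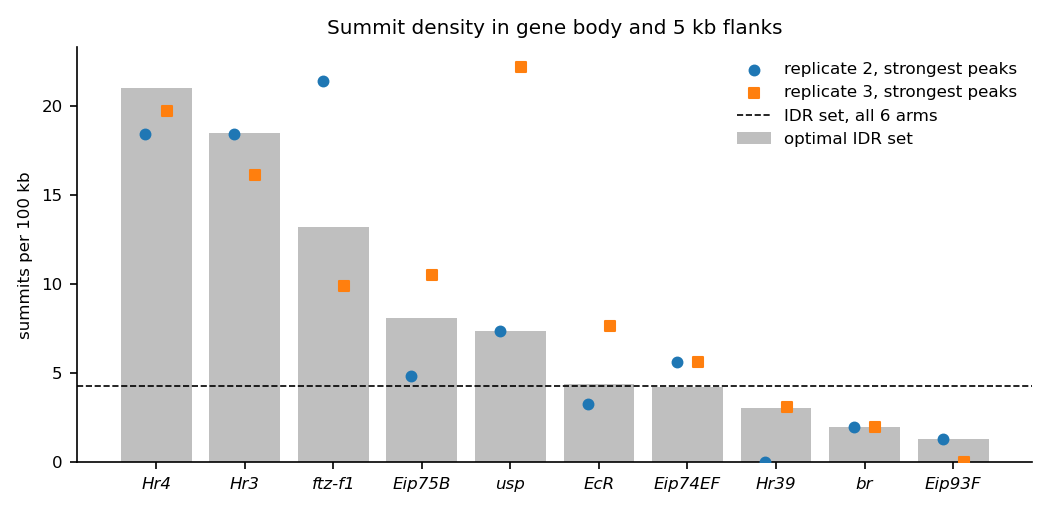
IDR summits per 100 kb of locus (grey bars) with the values from the strongest 5743 peaks of replicate 2 (circles) and replicate 3 (squares); the dashed line is 4.29 per 100 kb, the value over the 6 arms. Hr4 and Hr3 were high in both replicates, while ftz-f1 was higher in replicate 2 and Eip75B in replicate 3.

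In the IDR set the density was highest at Hr4, with 21.0 summits per 100 kb, and 18.4 and 19.7 in replicates 2 and 3. Hr3 had 18.5 per 100 kb, and 18.5 and 16.1 in the replicates. Both genes were dense in each replicate, and their order was not the same in each, since replicate 2 put Hr3 level with Hr4. ftz-f1 had 13.2 per 100 kb, with 21.4 in replicate 2 and 9.88 in replicate 3, and its count went from 8 to 13 and 6. Eip75B had 8.08 per 100 kb, with 4.85 in replicate 2 and 10.5 in replicate 3, and its count went from 10 to 6 and 13. These genes thus change places between the replicates. The remaining genes had from 7.4 per 100 kb at usp, which rests on 1 summit in a locus of 13.5 kb, to 1.33 at Eip93F. Of these, EcR went from 4 summits to 3 in replicate 2 and 7 in replicate 3, and usp from 1 to 1 and 3. Hr4 was thus densest in the IDR set but in neither replicate alone, since ftz-f1 was denser in replicate 2 and usp in replicate 3.

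**Figure D2:**
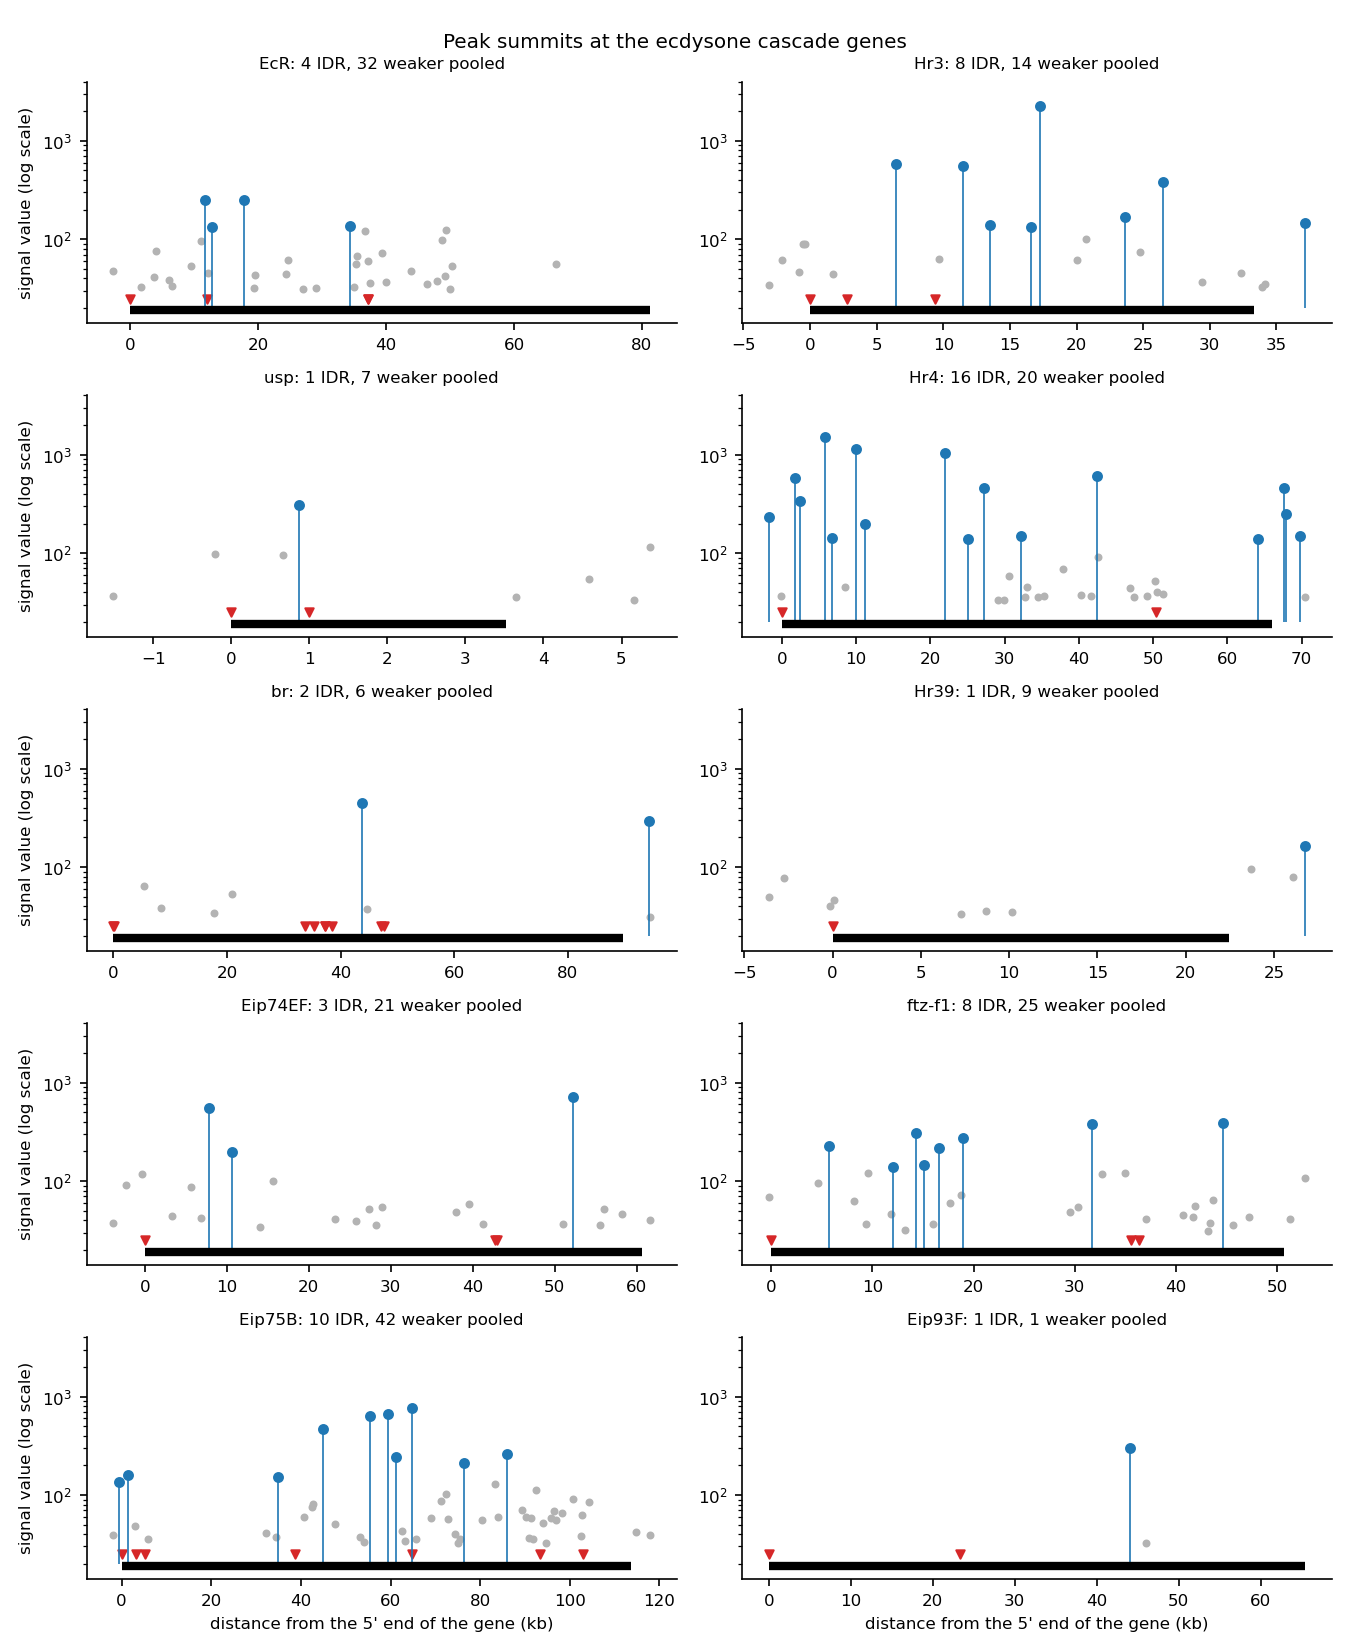
Signal values (log scale) of IDR summits (blue) and weaker pooled summits (grey) against the distance from the 5′ end of each gene in kb; the black bar is the gene body and red triangles are annotated transcription start sites. Hr4 and Hr3 show series of strong summits inside the gene, and br and Eip93F long stretches with none.

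The genes of the hormone receptor carried numbers of IDR summits that are common among windows of the same length, and these included promoter summits. EcR (FBgn0000546, chromosome 2R, 6087873 to 6169087, minus strand) encodes the ecdysone-binding subunit and had 4. The summit with signal value 250.7 (6157263 to 6157652) lay 329 bp upstream of the transcription start site (TSS) that EcR-RD and EcR-RE share, inside intron 1 of the longer EcR-RA. It ranked 2504 in replicate 2 and 2982 in replicate 3. A summit of 132.6 lay 893 bp downstream of the same TSS, in an untranslated exon, and had no counterpart within 100 bp in replicate 2. The other EcR summits (252.9 and 137.8) lay in the 56.8 kb intron 3 of EcR-RA, the first of them 1343 bp from the gene tRNA:Asn-GTT-1-1. The other 3 TSSs had no IDR summit within 1000 bp: the nearest was 11629 bp from that of EcR-RA, 2734 bp from that of EcR-RB and EcR-RC and 2815 bp from that of EcR-RG. Of the 36 pooled summits at EcR, 11.1% were IDR summits, against 19.1% of the whole pooled list.

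usp (FBgn0003964, chromosome X, 2038798 to 2042311, minus strand), the partner of EcR and the fly RXR, had a single IDR summit (2041254 to 2041643, signal value 305.8). It lay 137 bp upstream of the TSS of usp-RA and 862 bp downstream of that of usp-RB, in a 74 bp intron of usp-RB, so both TSSs were within reach of it. Its rank was 1492 in replicate 2 and 2904 in replicate 3. The gene Actn overlaps this position.

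The early genes differed from each other. br (FBgn0283451, chromosome X, 1575132 to 1664869, plus strand) encodes the Broad zinc finger proteins and has 9 TSSs over 89.7 kb. It had a single IDR summit in its body (1618732 to 1619016, signal value 450.0, ranks 694 and 2069), in the 48.4 kb intron 1 of br-RN. That summit was 3441 bp from the nearest br TSS and 712 bp upstream of a TSS of Mur2B, a gene that overlaps the position. The other summit of the locus (295.7) was in the 3′ flank, 71 bp upstream of CG3740. No br TSS had an IDR summit within 1000 bp.

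Eip74EF (FBgn0000567, chromosome 3L, 17558672 to 17619325, minus strand) encodes ETS domain factors and had 3 IDR summits, all in introns. The strongest (17566870 to 17567205, signal value 709.8, ranks 519 and 663) lay in the 31.7 kb intron 5 of Eip74EF-RA, 9289 bp downstream of the TSS of Eip74EF-RD. In intron 1, summits of 548.8 and 196.0 lay 7857 and 10607 bp downstream of the TSS shared by Eip74EF-RA, Eip74EF-RC and Eip74EF-RE. The first 2 of these 3 summits by strength stood within the first 1000 peaks of each replicate.

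Eip75B (FBgn0000568, chromosome 3L, 17950953 to 18064696, minus strand), a haem-binding nuclear receptor that counteracts Hr3, had 9 IDR summits in its body of 114 kb and 1 in the 5′ flank. The strongest lay at the TSS of Eip75B-RC, 11 bp upstream of it (17999630 to 17999968, signal value 768.5, ranks 634 and 453). It is the only IDR summit of the cascade within 100 bp of a TSS of its gene. Upstream of that TSS, within the 65.2 kb intron 3 of Eip75B-RF, followed summits of 244.2 at 3711 bp, 658.8 at 5416 bp and 637.2 at 9369 bp. The summits of 658.8 and 637.2 ranked 906 and 1218 in replicate 2 and 587 and 521 in replicate 3. Of the 7 TSSs, that of Eip75B-RF also had an IDR summit, 596 bp upstream (134.2). Those of Eip75B-RA, Eip75B-RB, Eip75B-RD, Eip75B-RE and Eip75B-RG had none within 1000 bp.

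The strongest peak of the cascade was inside Hr3 (FBgn0000448, chromosome 2R, 10203995 to 10237348, minus strand), the fly relative of the ROR receptors and an activator of ftz-f1. It covered 10219862 to 10220285 with a signal value of 2239. It ranked 34 of all IDR peaks, 37 in replicate 2 and 39 in replicate 3. The summit was 7891 bp downstream of the TSS shared by Hr3-RA, Hr3-RF and Hr3-RH, in the 26.9 kb intron 1 of Hr3-RD. The annotated genes CG12912 and CG46321 overlap this position. Summits of 584.0 and 553.1 flanked the same TSS at 2914 bp upstream and 2093 bp downstream, and the other 5 of the locus had from 133.7 to 385.2. The summit of 385.2 lay 488 bp from the start of lncRNA:CR46322. None of the 3 TSSs of Hr3 had an IDR summit within 1000 bp. The summit of 147.3 in the 3′ flank lay 473 bp upstream of CG34221.

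Hr4 (FBgn0264562, chromosome X, 1941940 to 2007956, plus strand), a nuclear receptor that represses early genes, had 16 IDR summits, 12 of them in the gene body. Of these, 6 lay in the 10.4 kb intron 2 of Hr4-RC, between 1.82 and 11.2 kb from the 5′ end. The strongest (1947561 to 1947933, signal value 1520) was 5819 bp downstream of the TSS used by Hr4-RC, and ranked 251 in replicate 2 and 79 in replicate 3. The next had 1133 (1951753 to 1952083, ranks 357 and 179) in the same intron and 1045 (1963768 to 1964097, ranks 257 and 325) in intron 3. None of the 3 ranked lower than 357 in either replicate. Neither TSS of Hr4 had an IDR summit within 1000 bp: the nearest was 1757 bp upstream of the 5′ TSS and 124 bp upstream of the neighbour CG3587. At the other TSS, of Hr4-RE and Hr4-RF, the nearest was 7979 bp upstream (607.1). In the 3′ flank, summits of 454.2 and 247.5 lay 250 and 449 bp upstream of PIG-K. They were 343 and 144 bp from the start of lncRNA:CR45478. A summit of 148.4 was 520 bp upstream of a TSS of east. Thus 4 of the 16 were within 1000 bp of a TSS of another protein-coding gene. Of the 36 pooled summits at Hr4, 44.4% were IDR summits, and at Hr3 36.4% of 22, against 19.1% of the whole list.

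The NR5 receptor pair differed. ftz-f1 (FBgn0001078, chromosome 3L, 18750607 to 18801309, minus strand) acts with the pair rule protein Ftz in the early embryo and later gives competence to respond to ecdysone. It had 8 IDR summits, 7 of them in the 33.7 kb intron 2 of ftz-f1-RB. Their signal values ran from 139.8 to 378.3. The strongest of the gene (18756553 to 18756805, signal value 385.1, ranks 1461 and 1623) lay in intron 3, 8281 bp downstream of the TSS of ftz-f1-RA. None of its 3 TSSs had an IDR summit within 1000 bp. Hr39 (FBgn0261239, chromosome 2L, 21237250 to 21259675, plus strand), the paralogue of ftz-f1, had no IDR summit in its body. The 1 summit of the locus (163.7) was in the 3′ flank, inside CG8671 and 1061 bp from a TSS of that gene. It lay 25 bp from the start of FBtr0309633_df_nrg, which is not annotated as protein-coding. It had no counterpart in replicate 2.

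Eip93F (FBgn0264490, chromosome 3R, 21949114 to 22014539, plus strand) directs cell death and adult fates at metamorphosis. A single IDR summit (21993012 to 21993236, signal value 301.6) lay in its 65.4 kb body, in intron 3 of Eip93F-RB and 20729 bp downstream of the nearest TSS. It ranked 1381 in replicate 2. Replicate 3 listed no peak at all in the locus among its 30000, while replicate 2 listed 9.

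Most annotated TSSs had no IDR summit within 1000 bp, both at the 10 genes and over all protein-coding genes. The 10 genes have 36 TSS positions, and 5 had an IDR summit within 1000 bp (13.9%, against 21.3% of all 19252 protein-coding TSS positions). These 5 belong to EcR (1), usp (2) and Eip75B (2), so 3 of 10 genes had a promoter summit, where 21.9% of all protein-coding genes and 37.5% of those of at least the median length did. With this number of genes, 3 of 10 is near both backgrounds. Taking replicate 3 alone added Eip74EF to the 3 genes, and taking replicate 2 alone added Hr3 and ftz-f1, giving 5. More TSSs had a peak of any rank: a summit of the whole pooled list lay within 1000 bp of 20 of the 36 (55.6%, against 56.5% of all TSS positions). Examples are the pooled summits 124 bp upstream of the 5′ TSS of Hr4 (rank 23581) and 80 bp downstream of that of Hr39 (rank 16927).

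Of the 54 IDR summits, 46 lay in gene bodies, 43 of these in introns and 3 in untranslated exons. The other 8 lay in flanks, 6 of them within 1000 bp of a TSS of another protein-coding gene. The intronic share was 79.6%, near the 83.7% of the 765 IDR summits at the loci of the other 203 long genes. Within 1000 bp of a TSS of any protein-coding gene lay 12 summits (22.2%), against 43.7% of all IDR summits. The share was 25% in replicate 2 and 29.3% in replicate 3. Other long genes had a like share: of 765 IDR summits at the loci of the other 203 genes of at least 63.0 kb, 24.3% were within 1000 bp of a TSS. The low share at the cascade genes is thus near that of long genes in general.

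Signal values at these loci were close to those of the whole set. The median was 257.1, against 245.8 for all IDR peaks. Away from TSSs it was 268.4 over 42 summits, against 229.9 for all IDR summits over 1000 bp from a TSS. In 5 equal bins of the IDR set from strongest to weakest, the loci held 13, 12, 10, 5 and 14 summits. The strong end was made up of Hr3 and Hr4: their 4 strongest summits are the 4 that fell in the top 5% of the set. The weakest IDR summit at a member gene had 132.6 (EcR), and the strongest pooled summit just outside the set had 128.5 (Eip75B, rank 5755).

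Both replicates listed most of these peaks. A summit within 100 bp among the strongest 5743 peaks was found for 44 of the 54 in replicate 2, 48 in replicate 3 and 38 in both (70.4%, against 74.5% of all IDR summits). In the full lists 50 of the 54 were found in both, a share near the 92.3% of all IDR summits. The 4 without a counterpart in 1 replicate were at EcR, Eip75B and Hr39 in replicate 2 and at Eip93F in replicate 3. The IDR set was derived from both replicate lists and the pooled list, which by itself raises these shares.

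**Figure D3:**
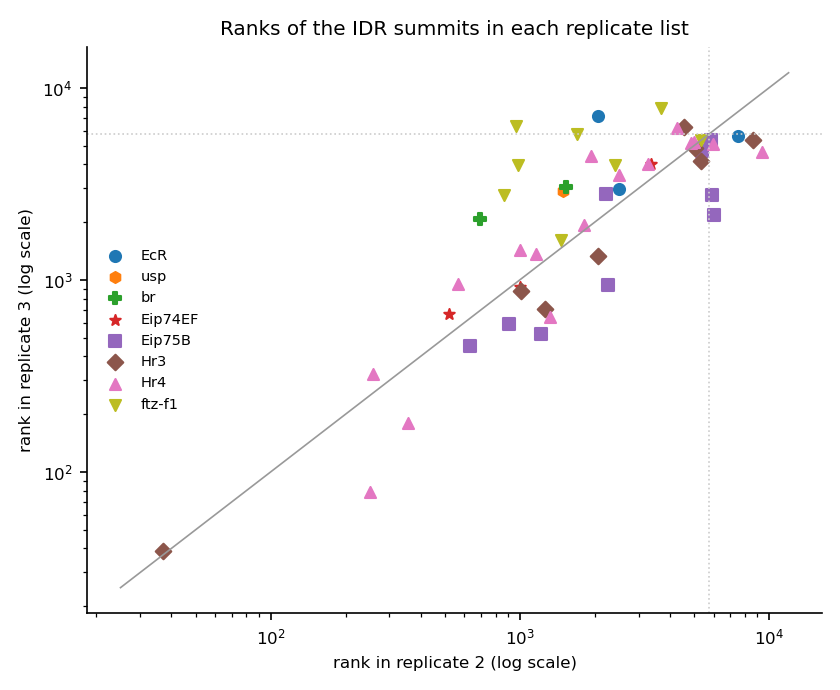
Rank of each IDR summit in the list of replicate 2 (x axis) and replicate 3 (y axis), on log scales with 1 the strongest, for the 50 summits found in both; the line marks equal ranks and dotted lines rank 5743. All 8 ftz-f1 summits lie above the line, and 8 of the 9 Eip75B summits below it.

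The replicates leaned in opposite ways at different genes. All 8 summits of ftz-f1 ranked higher in replicate 2, with a median rank of 1577.5 against 4683 in replicate 3. At Eip75B, on the same arm, 8 of the 9 summits listed in both ranked higher in replicate 3. Hr3 had 6 of 8 higher in replicate 3 and Hr4 11 of 16 higher in replicate 2. Over the 50 summits 29 ranked higher in replicate 2, and over all IDR summits 49.2% did. Summits of 1 gene share their surroundings, so these counts describe the loci and carry no test.

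Full lists differed more. At EcR replicate 2 listed 8 peaks and replicate 3 listed 58, and at Hr39 1 and 21. In the 1 Mb around the middle of each gene the lists held 120 and 245 peaks for EcR and 173 and 278 for Hr39, so part of the excess extended beyond the genes. At Eip93F, where replicate 3 listed 0 and replicate 2 listed 9, the surrounding 1 Mb held 298 and 276. Peaks of these lists reach far below the IDR set, and their part in the results was not tested.

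The summits were AT-rich, as were IDR summits elsewhere. The median GC content within 50 bp of the 54 summits was 30.7%, against 29.7% for all IDR summits and 41.6% for the weaker pooled peaks. Of the weaker peaks, 99.7% have their summit at the midpoint of the interval, against 43.8% of all IDR peaks and 42.6% of the 54. Over all IDR peaks the median GC was 29.7% at midpoint summits and 28.7% at the others. Among summits at the midpoint alone, the median was 30.7% for the 23 at the loci, 29.7% for all IDR peaks and 41.6% for the weaker ones. The 177 weaker pooled summits of the same loci had 42.6%, and the loci as a whole 42.1%, which is also the value of the 6 arms. The 8 ftz-f1 summits ranged from 23.8 to 32.7%, all below the 38.3% of their locus. Eip75B and Hr4 had the widest ranges, from 19.8 to 53.5% and from 27.7 to 60.4%. Summits with 50% GC or more numbered 3, at Hr4 (60.4%) and at Eip75B (53.5 and 52.5%). They make up 5.56% of the 54, against 2.0% of all IDR summits.

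**Figure D4:**
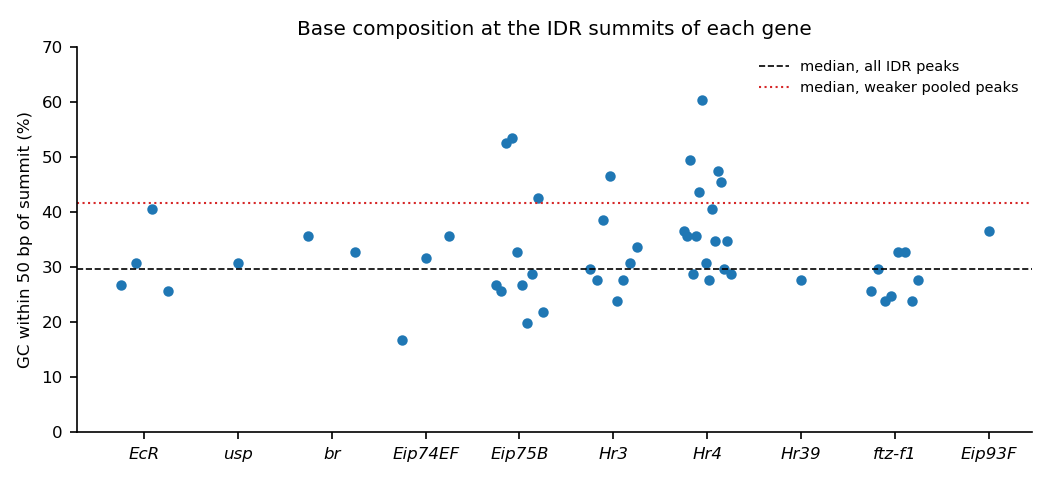
GC content within 50 bp of each IDR summit, by gene in 5′ to 3′ order; the dashed line is the median of all IDR peaks (29.7%) and the dotted line that of the weaker pooled peaks (41.6%). Most summits sit near the dashed line, and summits of Hr4, Eip75B and Hr3 reach above the dotted one.

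Letters of known motifs were about as frequent as at other IDR summits. The forkhead core TAAACA, on either strand and within 50 bp, was at 10 of the 54 (18.5%, Wilson 95% interval 10.4 to 30.8), against 15.7% of all IDR summits and 10.1% of weaker peaks, nearly all of them with midpoint summits. These 10 lay at the loci of EcR, Eip75B, Hr3, Hr4 and ftz-f1, and include the flank summits upstream of PIG-K and of CG34221. The full motif GTAAACA, which contains the core, was at 2 (3.7%, against 2.86% of all and 2.59% of weaker peaks). These were the EcR summit of 132.6, without a counterpart in replicate 2, and the Hr4 flank summit of 247.5 upstream of PIG-K. The homeodomain motif TAATTA was at 9 (16.7%, interval 9.02 to 28.7, against 12.5% of all and 6.56% of weaker peaks). The GAGA motif, searched as GAGAG or CTCTC, was at 3 (5.56%, interval 1.91 to 15.1, against 7.75% and 11%). The nuclear receptor hexamer AGGTCA was at 0 of the 54, with an upper bound of 6.64%. It was at 1.93% of all IDR summits and 2.44% of weaker peaks. The intervals cover counting error only and treat the 54 summits as independent, though many lie at the same gene. The 54 are also part of all IDR summits, so the intervals carry no test. A match describes the letters and shows no site.

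Other genes of the pathway were counted in 4 lists by an IDR summit within 1000 bp of a TSS, beside the 21.9% of all protein-coding genes. Of 13 genes for making or breaking down ecdysone, 2 had one, shd, the enzyme of the last step to the active hormone (signal value 157.6), and Npc1a, a sterol transporter (129.6). Of 6 genes for the signal to the gland and for cofactors of the receptor, 1 had one, tai, a coactivator of EcR (326.9). Of 14 other nuclear receptor genes, 6 did: Hr96 (754.8), which acts in the response to foreign compounds, Hnf4 (693.3), a regulator of fat use, ERR (429.1), eg (336.1), Hr78 (314.3) and Hr38 (218.8). Of 18 downstream or cross-talking genes, 6 did, and 4 of their peaks were stronger than any of the other lists. E23, an ABC transporter gene induced by ecdysone, had 1963 (rank 58), Sox14 1737 (rank 87), the juvenile hormone receptor gene gce 1529 (rank 115), Ldh 1025, Eip63F-1 320.3 and Eip63E 201.8. IDR summits per 100 kb of locus were 3.49 for the synthesis list, 6.74 for the cofactor list, 4.88 for the other receptors and 7.02 for the downstream list. All loci of the 10 transcription factor genes together had 7.86, with a median over these genes of 5.89. The 208 genes of at least 63.0 kb had a median of 2.35. The lists were not matched for gene length. The peak at E23 had its summit 250 bp upstream of a TSS and that at Sox14 246 bp upstream, whereas the peaks of like strength at Hr3 and Hr4 were intronic.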

How the data were processed

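Per the file headers, the authors derived each replicate's peak list from that replicate's alignments and 1 further file, the pooled list from both, and the optimal IDR set from all 3 lists, in dm6. Aligner, peak caller and threshold: not given in the sources used here. Deposited lists give a signal value (column 7) and a −log10 q-value per peak, the latter not used for results. The summit was column 2 plus column 10; 3 IDR summits beyond their interval were moved to its edge, and 23 of the 54 described lie at the interval midpoint. Sequence was read from the Release 6 genome. Members and lists were chosen with earlier results of these data known. List genes were matched by symbol, then by synonym; 51 were found and phm, EcI and let-7-C were not. All 10 genes are named, as is every list gene with a promoter summit. With 1 group and 2 replicates no test was made: counts stand beside all protein-coding genes, all IDR peaks and tiled windows. Counting was checked on simulated summits. Tools were pandas 2.3.3 and numpy 2.4.6 under Python 3.11.15, with scipy 1.17.1 for intervals and matplotlib 3.10.9 for figures.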

Additional observations from a re-analysis of the deposited data

How the results depend on the processing

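No paired analysis was possible because the 2 samples form a single group. With flanks of 0 to 10000 bp the loci held 46 to 58 summits and 7.37 to 7.98 per 100 kb. With 0 or 2000 bp 9 of the 10 genes had one. No share over all genes is given for these flanks, for single replicates or for the whole pooled list. The whole pooled list gave 231 summits and 8 genes with a summit near a TSS. By TSS position its share was 55.6%, against 56.5% of all TSS positions. The stronger part of the IDR set gave 30 summits and 4.37 per 100 kb. The larger and the smaller summit counts follow by construction. Leaving out 1 replicate gave 52 to 58 summits, 7.57 to 8.45 per 100 kb, 9 of 10 genes with a summit, 4 to 5 genes with one near a TSS, a promoter share of 25 to 29.3%, a median GC of 32.7% each time and 14 to 15 of the 51 other pathway genes (an alternative chosen after seeing the data), against 15. The promoter share was 14.8% with a window of 500 bp and 27.8% with 2000 bp. Median GC was 33.3% within 25 bp, 33.6% within 100 bp and 32.7% over the 31 summits away from the interval midpoint (added after seeing the data); the cause was not tested. Summits matched in both replicates numbered 33 to 39 with other definitions of a match and 50 in the full lists, against 38. Depth is unknown.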
